A study of Mus musculus with 6 samples.

Results

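Libraries of total RNA from mouse mesoderm progenitor cells were compared to ask what FGF4 adds to BMP4 over 11 h: cells given BMP4 with FGF4, and cells given BMP4 alone. They are 2 of the 6 libraries of the series, and each condition has 1 library. The tested culture received recombinant human BMP4 and recombinant human FGF4, and its control received recombinant human BMP4 only. Both cultures were of strain C57BL/6, had spent 96 h in culture before the factors were added, and were labelled 107 h in culture. All cells grew in medium with 10% serum on feeder layers of wild-type mouse embryonic fibroblasts stopped from dividing with mitomycin C, so RNA of feeder cells may be present in any library. The other libraries were BMP4 with FGF8 for 5 h, BMP4 for 5 h (both labelled 101 h in culture), and no growth factor at 96 h and at 0 h. No library is an untreated control of the same culture time, and none received FGF4 without BMP4.

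The tailbud is the growth zone at the end of the vertebrate embryo, where progenitors supply the mesoderm of the trunk and tail. T (Brachyury), the Cdx factors and WNT and FGF ligands mark these progenitors, which pass through a presomitic state, marked by Tbx6 and Msgn1, on the way to somites. BMP ligands signal through SMAD factors and raise Id and Msx genes, and in the embryo BMP favours lateral plate, blood and vessel fates over somites. FGF ligands signal through receptor tyrosine kinases to ERK, which induces feedback inhibitors (Sprouty and Dusp genes) and ETS factors (Etv4 and Etv5).

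Total counts were 206470866 with BMP4 and FGF4 and 179196459 with BMP4 alone, and those of the other libraries lay between 218825816 and 272743104. Values are CPM (edgeR's library-scaled counts, with composition scaling by TMM), and log2 ratios are of BMP4 with FGF4 over BMP4 with 0.5 CPM added to both, which understates the change of low genes. With 1 library a side no ratio has a replicate check or a p-value, and bracketed intervals are exact 95% intervals that cover counting error only. In bulk RNA, fewer cells of a type and less RNA per cell cannot be told apart. The libraries were not ordered by labelled culture time: red blood cell genes summed to 3621 CPM at 96 h and 172.5 CPM at 0 h, but in the 5 h libraries to 269.9 CPM (BMP4 with FGF8) and 166 CPM (BMP4). The same genes summed to 2319.9 CPM with BMP4 and FGF4 and to 3425 CPM with BMP4 at 11 h. These sums are over 26 genes, of which 3 pairs of globin genes with counts within 1% of each other in every library were counted once. Of the markers of the labelled cell type, T was present in both 11 h libraries, at 11 CPM with FGF4 and 44.7 CPM with BMP4 alone. Msgn1 was scarce with FGF4, at 0.821 CPM, against 6.47 CPM with BMP4 alone.

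Adding FGF4 was accompanied by lower tailbud, presomitic and posterior Hox genes and higher endothelial, fibroblast and heart genes, while the FGF feedback genes and the BMP targets were not higher as groups. Of 13964 genes with at least 1 CPM in 1 of the 2 libraries, 182 were at least 2-fold higher with FGF4 (1.3% of genes analysed) and 92 at least 2-fold lower (0.659%). The median log2 ratio over all genes was -0.03, and its 1st and 99th percentiles were -0.81 and 1.08. Scaling by total counts instead moved all ratios up by 0.14 and gave 241 higher and 71 lower genes. The counting interval excluded equality for every one of these genes, so the fold alone set the calls. Of the genes counted, 11 of the higher and 10 of the lower ones carry predicted, RIKEN, small RNA or ribosomal RNA symbols and are not named below unless stated. Nearest the threshold on the lower side stood the chromatin factor gene Jarid2, at -1.01, and the WNT ligand gene Wnt5a, at -0.99, just outside. On the higher side Hspg2, a proteoglycan of basement membranes, was just inside at 1.00.

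**Figure D1:**
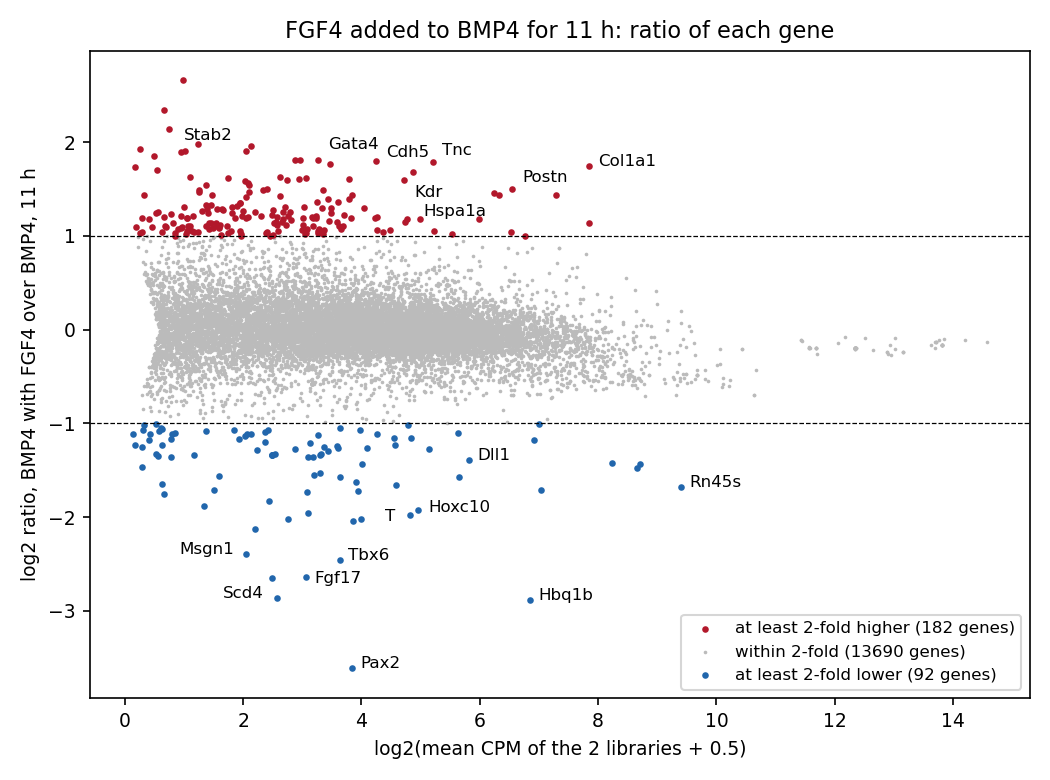
Log2 ratio of BMP4 with FGF4 over BMP4 at 11 h (vertical axis) against the log2 mean level of both libraries (CPM + 0.5, horizontal axis), 1 point per gene. Dashed lines mark 2-fold; 182 genes lie above and 92 below, with Pax2 lowest at -3.62 and Col1a1 among the most abundant of the higher genes.

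Tailbud and primitive streak genes were lower with FGF4. Of 29 genes in the list, 21 were analysed, of which 8 were at least 2-fold lower and 0 higher, with a median log2 ratio of -0.95 against -0.03 over all genes. T (chromosome 17, 8434423 to 8442496), the T-box factor that defines the streak and tailbud, had 11 CPM with BMP4 and FGF4 and 44.7 CPM with BMP4, a 4.06-fold lower level (interval 3.88 to 4.25). It stood at 73.6 CPM with BMP4 and FGF8, 78.1 CPM with BMP4 at 5 h, 7.68 CPM at 96 h and 83.6 CPM at 0 h, so the FGF4 library lay next to the 96 h library. Fgf17 (chromosome 14, 70636203 to 70642268), an FGF ligand of the tailbud, had 1.797 CPM with FGF4 and 13.8 CPM with BMP4 alone, 7.70-fold lower (6.91 to 8.60).

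The caudal homeobox genes of this list differed among themselves. Cdx4 (chromosome X, 103321398 to 103330224) was at 5.18 CPM with FGF4 and 22.8 CPM with BMP4, and Cdx2 at 5.76 CPM with FGF4 and 18.2 CPM with BMP4, whereas Cdx1 had a log2 ratio of 0.29. Cyp26a1, which degrades retinoic acid and keeps it out of the tailbud, had 3.02 CPM with FGF4 and 13.2 CPM with BMP4. Evx1 (log2 ratio -1.36), Hes3 (-1.13) and Nkx1-2 (-1.11, within 2-fold when scaled by total counts), transcriptional regulators of caudal or early neural progenitors, completed the lower set. The WNT ligand gene Wnt3a, which maintains the progenitors, had 2.91 CPM with FGF4 and 6.07 CPM with BMP4. With 0.5 CPM added to both, its log2 ratio of -0.95 lay just short of the threshold. Sox2, a factor of neural and neuromesodermal progenitors, was at -0.27. Fgf8, Fgf4 and Fgf3 could not be placed securely in both columns and are not analysed here.

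Presomitic mesoderm genes showed the same direction. Of 28 genes, 26 were analysed, 12 were at least 2-fold lower and 0 higher, and the median log2 ratio was -0.75. Msgn1, Ripply2 and Mesp2 reached 1 CPM only with BMP4 and so could enter only as lower; of the 23 genes at 1 CPM or more in both libraries, 9 were lower, with a median of -0.58. Tbx6 (chromosome 7, 126781483 to 126785548), which directs cells to paraxial mesoderm, had 3.31 CPM with FGF4 and 20.5 CPM with BMP4, 6.17-fold lower (5.69 to 6.70). Msgn1 (chromosome 12, 11208382 to 11208948), a helix-loop-helix factor of the presomitic mesoderm, had 0.821 CPM with FGF4 and 6.47 CPM with BMP4, 7.88-fold lower (6.72 to 9.30). Both genes were lower still at 96 h, with 0.587 CPM of Tbx6 and 0.151 CPM of Msgn1, and far higher at 0 h, with 40.9 CPM of Tbx6 and 23.3 CPM of Msgn1. Markers of other cell types differed beside these genes: the endothelial list summed to 321 CPM with FGF4 and 148 CPM with BMP4, and the fibroblast list to 1434 CPM with FGF4 and 621 CPM with BMP4. Their part in the lower tailbud and presomitic levels was not tested.

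Members of the Notch pathway and segmentation clock were part of this group. Hes7, the clock repressor, had 1.22 CPM with FGF4 and 6.99 CPM with BMP4. The Notch ligand genes Dll3 and Dll1 had 6.83 and 30.7 CPM with FGF4, against 22.1 and 81.2 CPM with BMP4. Nrarp, a feedback inhibitor of Notch, had 14.02 CPM with FGF4 and 31.8 CPM with BMP4, while Lfng, a Notch-modifying glycosyltransferase, was at -0.56. Rspo3, a secreted enhancer of WNT signalling, was at 8.17 CPM with FGF4 and 22.9 CPM with BMP4, and the WNT antagonist gene Dkk1 at 2.22 CPM with FGF4 and 6.15 CPM with BMP4. Ripply2 and Mesp2, which set the somite boundary, had log2 ratios of -1.33 and -1.02 but were scarce, at no more than 1.56 CPM in either library.

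The promoters of T and Msgn1 are shown because both genes are known in mouse as targets of WNT signalling through TCF/LEF factors and moved together here. The 250 bases before each start site are from RefSeq (build GRCm38.p6), in the direction of the gene, with capitals marking the TCF/LEF letters CTTTGAA or CTTTGAT on either strand. T lies at chr17:8434173-8434422 on the plus strand and Msgn1 at chr12:11208949-11209198 on the minus strand.
T: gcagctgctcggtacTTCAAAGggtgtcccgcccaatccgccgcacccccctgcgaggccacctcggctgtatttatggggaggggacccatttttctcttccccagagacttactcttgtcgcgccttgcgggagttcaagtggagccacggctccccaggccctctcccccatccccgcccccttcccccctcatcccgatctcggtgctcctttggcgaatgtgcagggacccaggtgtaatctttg
Msgn1: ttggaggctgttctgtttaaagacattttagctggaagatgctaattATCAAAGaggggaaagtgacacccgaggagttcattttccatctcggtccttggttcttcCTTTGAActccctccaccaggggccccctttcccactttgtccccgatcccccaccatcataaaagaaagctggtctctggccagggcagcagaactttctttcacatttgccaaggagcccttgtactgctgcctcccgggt
The T promoter held 1 match and the Msgn1 promoter 2. Among all 32851 promoters of this length in the RefSeq table, 7.5% held a match. The share was 22.2% for tailbud genes (6 of 27 promoters found), 9.7% for presomitic genes (3 of 31), the list that holds Msgn1, and 9.0% for all genes at least 2-fold lower (7 of 78). A match describes letters and not a bound site.

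The posterior Hox genes, which give tail and hindlimb levels their identity, were lower with FGF4. Of 12 genes, 8 were analysed and 8 were at least 2-fold lower, with a median log2 ratio of -1.71 and a range from -2.02 to -1.33. Of these, 2 (Hoxc11 and Hoxd12) reached 1 CPM only with BMP4 and so could enter only as lower; the other 6, at 1 CPM or more in both libraries, had a median of -1.69. A further 3 genes, placed but under 1 CPM in both libraries, had log2 ratios from -0.72 to -0.12. Hoxd11 (chromosome 2, 74679558 to 74687016) had 5.80 CPM with FGF4 and 25.0 CPM with BMP4, 4.31-fold lower (4.05 to 4.60). Hoxc10 had 12.5 CPM with FGF4 and 48.8 CPM with BMP4, and Hoxa10 11.1 CPM with FGF4 and 36.0 CPM with BMP4. The list summed to 48.2 CPM with BMP4 and FGF4 and 168 CPM with BMP4 at 11 h, beside 307 CPM with BMP4 and FGF8, 293 CPM with BMP4 at 5 h, 47.2 CPM at 96 h and 344 CPM at 0 h. Of 12 trunk Hox genes 3 were lower (Hoxa9, Hoxc9 and Hoxc6), with a median of -0.78, and of 15 anterior Hox genes 0, with a median of -0.32 and a range from -0.96 to -0.16. The ratios did not follow the order of genes within each cluster: in HoxB, Hoxb1 was at -0.96, Hoxb7 at -0.91 and Hoxb9 at -0.24, and in HoxD, Hoxd1 was at -0.81, Hoxd9 at -0.80, Hoxd11 at -2.02 and Hoxd13 at -1.33. No test of a gradient was made.

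The largest single ratio among named genes was that of Pax2, a factor of the intermediate mesoderm and kidney (chromosome 19, 44746601 to 44838269). It had 1.66 CPM with BMP4 and FGF4 and 25.9 CPM with BMP4, 15.7-fold lower (14.1 to 17.5), beside 0.779 CPM at 96 h and 52.8 CPM at 0 h. Its relative Pax8 had 0.429 CPM with FGF4 and 1.68 CPM with BMP4. Of the 20 genes of the nephric list, 3 were lower (Pax2, Pax8 and Cited1), with a median of -0.40. Pax8 reached 1 CPM only with BMP4 and so could enter only as lower. Among the 19 genes at 1 CPM or more in both libraries, 2 were lower, with a median of -0.22. Osr1, a factor of early intermediate and lateral mesoderm, had 4.08 CPM with FGF4 and 6.66 CPM with BMP4. Gad1, which makes the transmitter GABA in neurons, had 1.04 CPM with FGF4 and 9.15 CPM with BMP4, and the matrix protein gene Adamtsl2 2.17 CPM with FGF4 and 10.3 CPM with BMP4.

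**Figure D2:**
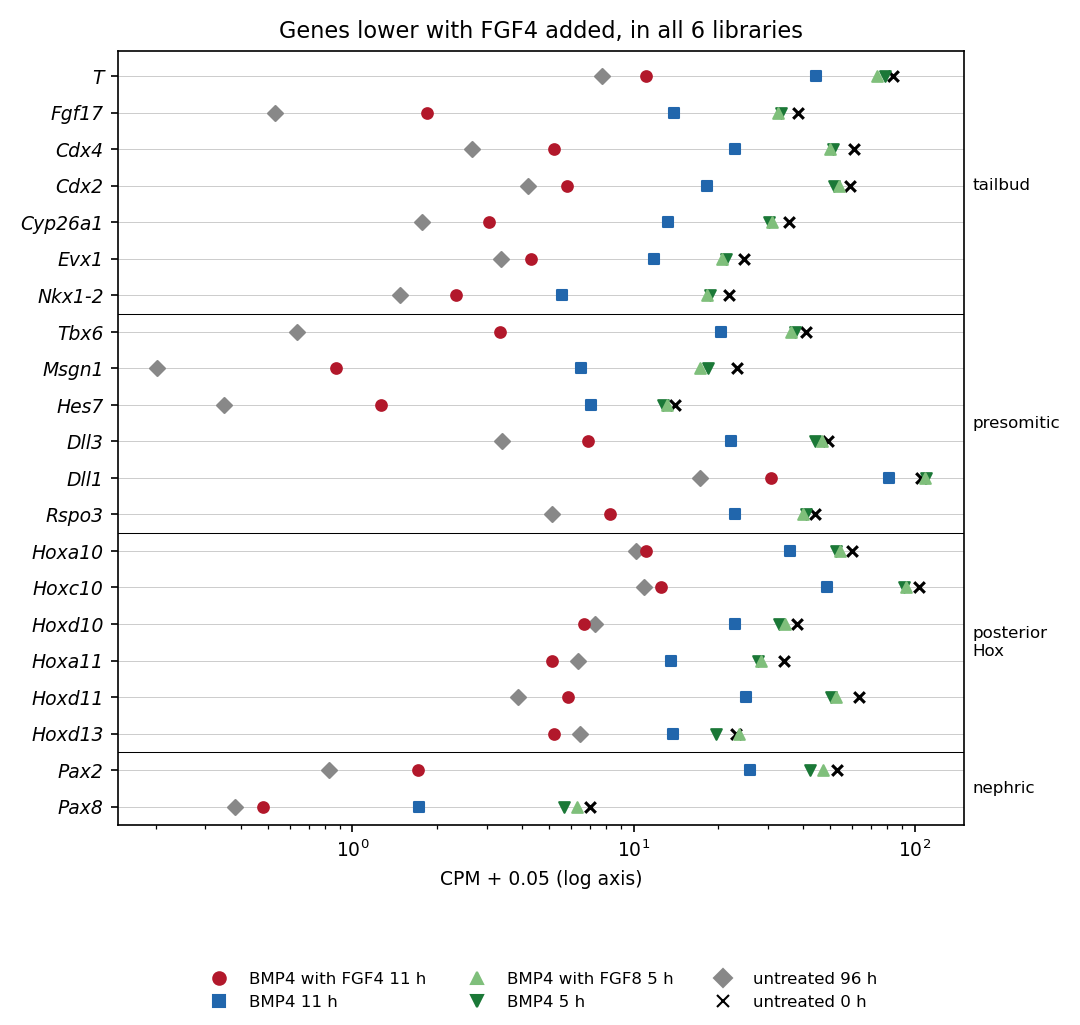
Levels (CPM + 0.05, log axis) of 21 genes at least 2-fold lower with FGF4, with a marker for each of the 6 libraries. For every gene the BMP4 with FGF4 library lies left of the BMP4 11 h library and nearer, on this log axis, to the untreated 96 h library, and the 5 h and 0 h libraries lie to the right.

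Genes that FGF induces through ERK were not higher as a group 11 h after FGF4 was added. Of 30 feedback and target genes, 29 were analysed, 0 were at least 2-fold higher and 1 lower, and the median log2 ratio was -0.13 (0.01 when scaled by total counts). With TMM scaling 6 had ratios above 0, with Egr1 highest at 0.73 and Fos at 0.52, and 23 had ratios below 0. The gene past 2-fold was Etv4, an ETS factor, at 9.58 CPM with FGF4 and 20.7 CPM with BMP4. It was 2.16-fold lower (2.05 to 2.29) and fell within 2-fold when scaled by total counts. Its relative Etv5 had 21.7 CPM with FGF4 and 36.8 CPM with BMP4. Among the Sprouty inhibitors, Spry4 had 6.57 CPM with FGF4 and 11.4 CPM with BMP4, Spry2 had 14.8 CPM with FGF4 and 19.3 CPM with BMP4, and Spry1 had 10.99 CPM with FGF4 and 11.7 CPM with BMP4. The ERK phosphatase genes Dusp6 and Dusp4 had 65.0 and 32.3 CPM with FGF4, against 71.4 and 46.3 CPM with BMP4. Il17rd, a membrane inhibitor of FGF receptors, had 32.2 CPM with FGF4 and 54.3 CPM with BMP4.

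Immediate early genes, which ERK switches on within minutes to hours, were mixed. Of 24 analysed, 16 had ratios above 0 and 8 below, with a median of 0.16 and a lowest value of -0.56 (Btg2). Klf4, at 11.7 CPM with FGF4 and 16.6 CPM with BMP4, was also below 0 (-0.48). Egr1 had 78.8 CPM with FGF4 and 47.2 CPM with BMP4 (log2 ratio 0.73). Past 2-fold, 2 genes were higher and 0 lower: Fosb, at 37.5 CPM with FGF4 and 16.2 CPM with BMP4, and Klf2, at 3.28 CPM with FGF4 and 1.21 CPM with BMP4. Jun had 78.7 CPM with FGF4 and 48.9 CPM with BMP4. Egr1, Jun and Fosb were lower in the untreated libraries, with Egr1 at 18.05 CPM at 96 h and 15.8 CPM at 0 h. Among ligands and receptors, Fgf17 was the single gene of 15 past the threshold, and the receptor gene Fgfr1 had 82.8 CPM with FGF4 and 91.3 CPM with BMP4.

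BMP/SMAD target genes were within 2-fold throughout: of 21 analysed, 0 were higher and 0 lower, with a median log2 ratio of -0.15. Id1, Id2 and Id3, inhibitors of helix-loop-helix factors that BMP induces, had 30.7, 59.5 and 54.1 CPM with FGF4, against 31.7, 74.2 and 65.2 CPM with BMP4. Id4 was at 3.01 CPM with FGF4 and 5.15 CPM with BMP4. The homeobox gene Msx1 was at -0.23 and its relative Msx2 at -0.15. The widest members were Gata3, at -0.81, and Prdm6 and Hand1, at 0.75 and 0.74. Bmp4 itself had 22.1 CPM with FGF4 and 24.5 CPM with BMP4. The 20 BMP ligand, receptor and antagonist genes had a median of 0.01, with 0 past the threshold.

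**Figure D3:**
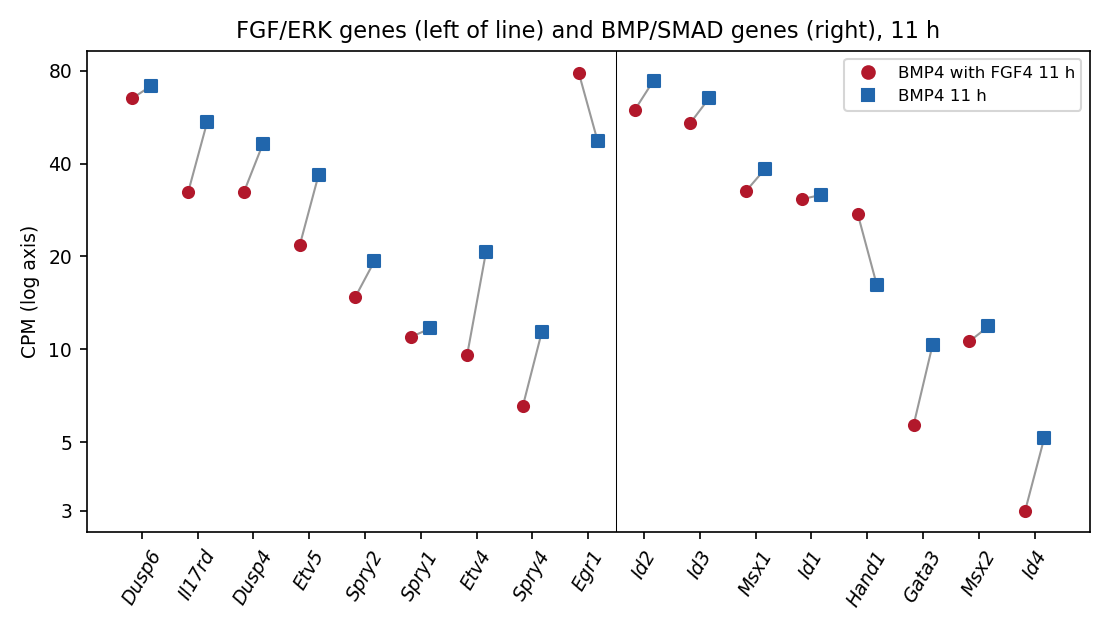
Levels (CPM, log axis) of 9 FGF/ERK genes and 8 BMP/SMAD genes, with BMP4 with FGF4 left of BMP4 for each gene and a line joining the pair. Etv4 is 2.16-fold lower with FGF4, the other 16 pairs lie within 2-fold, and Egr1 and Hand1 slope the other way.

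Endothelial genes were higher with FGF4. Of 29 genes, 28 were analysed, 13 were at least 2-fold higher and 0 lower, and the median log2 ratio was 0.95. Cdh5 (VE-cadherin, the junction protein of vessels; chromosome 8, 104101613 to 104144504) had 29.0 CPM with FGF4 and 8.003 CPM with BMP4, 3.63-fold higher (3.42 to 3.85). The receptor genes Tie1 and Tek, for angiopoietin signalling, had 16.6 and 20.4 CPM with FGF4, against 4.51 and 6.39 CPM with BMP4. The VEGF receptor genes Kdr, Flt4 and Flt1 had 39.0, 13.8 and 15.5 CPM with FGF4, against 12.6, 5.32 and 6.01 CPM with BMP4. The surface genes Pecam1, Cd34, Emcn and Eng were higher by between 1.19 and 1.44 on the log2 scale. The transcription factors and cofactors of the list were within 2-fold on the scale with 0.5 CPM added. The ETS factors Erg and Fli1 were at 0.96 and 0.76 and the vessel factors Sox17, Sox7 and Sox18 at 0.94, 0.89 and 0.78. Lyl1 and Runx1 were at 0.49 and 0.45, Tal1 at 0.28, Etv2 at 0.25, Gata2 at 0.24 and Lmo2 at -0.85. The list summed to 321 CPM with BMP4 and FGF4 and 148 CPM with BMP4 at 11 h, beside 236 CPM at 96 h and between 69.4 and 75.2 CPM in the other 3 libraries.

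The promoters of Tie1 and Flt1 are shown as members of this group, because ETS factors are known regulators of endothelial genes. They are the 250 bases before the start from the same RefSeq build, with capitals marking the ETS letters AGGAAG or CGGAAG on either strand. Tie1 lies at chr4:118489850-118490099 and Flt1 at chr5:147726012-147726261, both on the minus strand. The Flt1 stretch precedes the start that the RefSeq promoter table gives, which lies inside the outer bounds of the gene record, so it is not the sequence before the outermost start.
Tie1: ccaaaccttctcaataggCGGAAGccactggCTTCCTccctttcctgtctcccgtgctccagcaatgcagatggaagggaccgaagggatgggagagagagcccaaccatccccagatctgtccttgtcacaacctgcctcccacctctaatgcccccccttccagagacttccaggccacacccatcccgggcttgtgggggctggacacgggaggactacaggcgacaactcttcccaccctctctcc
Flt1: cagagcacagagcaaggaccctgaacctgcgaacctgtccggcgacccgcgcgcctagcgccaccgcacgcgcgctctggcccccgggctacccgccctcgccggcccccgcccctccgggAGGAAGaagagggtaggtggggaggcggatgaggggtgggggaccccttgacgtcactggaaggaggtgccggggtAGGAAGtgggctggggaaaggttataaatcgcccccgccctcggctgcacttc
Each held 2 matches. These letters are common: 39.2% of all promoters held one, as did 12 of the 24 promoters found for endothelial genes and 46.8% of those of all genes at least 2-fold higher.

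Fibroblast and matrix genes were higher by a similar amount. Of 17 fibroblast and feeder layer genes, 15 were analysed and 10 were at least 2-fold higher, with a median log2 ratio of 1.13 and a lowest value of 0.09. Col1a1, the main chain of type I collagen (chromosome 11, 94936224 to 94953042), had 355 CPM with FGF4 and 106 CPM with BMP4, 3.36-fold higher (3.31 to 3.42), beside 190 CPM at 96 h and 19.3 CPM at 0 h. The small matrix proteoglycan genes Lum and Dcn had 44.0 and 11.2 CPM with FGF4, against 13.4 and 4.21 CPM with BMP4. Postn, a matrix protein of fibroblasts, had 138 CPM with FGF4 and 48.1 CPM with BMP4. The surface marker gene Thy1 had 7.41 CPM with FGF4 and 3.10 CPM with BMP4. The list summed to 1434 CPM with BMP4 and FGF4, 621 CPM with BMP4 at 11 h, 313 CPM with BMP4 and FGF8, 348 CPM with BMP4 at 5 h, 982 CPM at 96 h and 256 CPM at 0 h, and no member placed in all libraries was at 0 in any. How far RNA of the feeder layer takes part in these ratios was not tested. All 22 collagen chain genes had ratios above 0 and 6 were at least 2-fold higher, with a median of 0.87.

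Some genes stood above every other library with FGF4. At least a 2-fold margin over each of the other 5 libraries was met by 23 of 13947 genes, and a 2-fold margin below all of them by 1. Tnc (tenascin C, a matrix protein of wounds and embryonic mesenchyme; chromosome 4, 63959785 to 64047015) had 57.1 CPM with FGF4, 16.1 CPM with BMP4 and 18.5 CPM at 96 h, 3.55-fold over BMP4 alone (3.40 to 3.70). Stab2, a scavenger receptor of sinusoidal endothelium, had 6.45 CPM with FGF4 and 1.28 CPM with BMP4, and no more than 0.532 CPM elsewhere. Flt1 and Thy1 belonged to this set, as did Cryab, a small heat shock protein, at 11.7 CPM with FGF4 and 2.97 CPM with BMP4, and the smooth muscle genes Actg2 and Myh11, at 3.53 and 2.36 CPM with FGF4, against 1.33 and 0.654 CPM with BMP4. Myh11 and some others of the 23 genes reached 1 CPM at 11 h only with FGF4 and so could enter only as higher. Spp1 (osteopontin, a secreted matrix protein) had 19.2 CPM with FGF4 and 8.10 CPM with BMP4, and 0.919 CPM at 96 h.

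Heart and lateral plate genes were higher in part. Of 13 cardiac and sarcomere genes analysed from a list of 22, 5 were at least 2-fold higher and 0 lower, with a median of 0.79. Myh6 and Myh7, the cardiac myosin heavy chains, had 14.6 and 6.92 CPM with FGF4, against 6.25 and 2.13 CPM with BMP4, and 25.99 and 8.05 CPM at 96 h. Gata4 (chromosome 14, 63198914 to 63271712), a zinc finger factor of heart and endoderm, had 14.5 CPM with FGF4 and 3.76 CPM with BMP4, 3.86-fold higher (3.54 to 4.21). Tbx20, a heart T-box factor, had 17.1 CPM with FGF4 and 6.34 CPM with BMP4. These were the 2 genes of 22 past the threshold in the lateral plate list, whose median was 0.19. Foxf1, the splanchnic mesoderm factor, had 16.3 CPM with FGF4 and 13.03 CPM with BMP4, and Hand1 27.4 CPM with FGF4 and 16.2 CPM with BMP4. Upk3b, a uroplakin expressed by mesothelium, had 10.9 CPM with FGF4 and 2.75 CPM with BMP4.

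**Figure D4:**
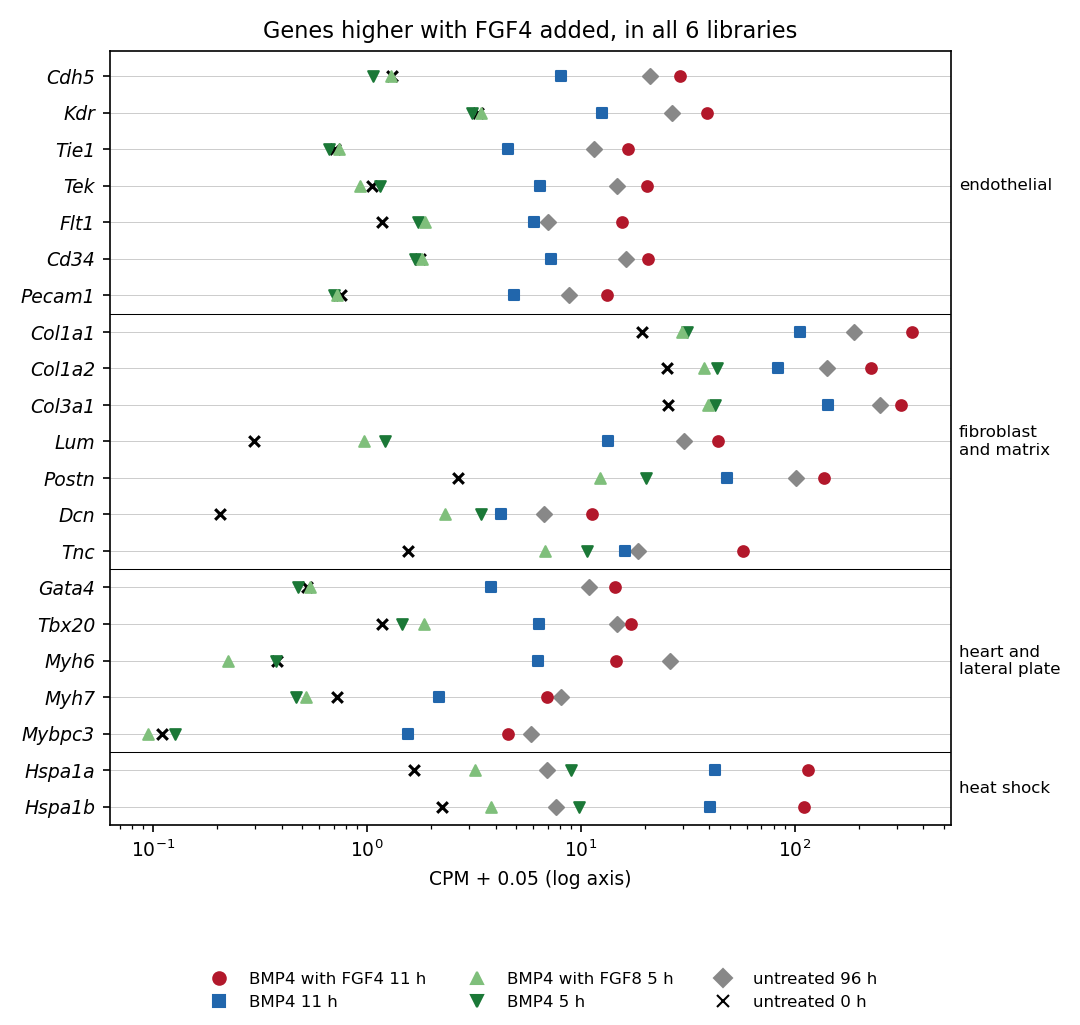
Levels (CPM + 0.05, log axis) of 21 genes at least 2-fold higher with FGF4, with a marker for each of the 6 libraries. The BMP4 with FGF4 library lies right of the BMP4 11 h library for every gene; the untreated 96 h library lies between them or beyond for the vessel, matrix and heart genes, and far to the left for Hspa1a and Hspa1b.

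Red blood cell genes were not higher beside the endothelial genes. Of 26 analysed, 0 were higher and 1 was lower, with a median of -0.21 (-0.12 with each near-identical pair counted once). The adult globin genes Hba-a1 and Hba-a2 had almost the same counts, 259297 and 259294 with FGF4, against 331077 and 331074 with BMP4, and whether the same reads were counted for both or divided between them cannot be told apart. Hba-a1 had 1210.2 CPM with FGF4 and 1968 CPM with BMP4. Hbb-b1 and Hbb-bs, and Hbb-b2 and Hbb-bt, likewise had matching counts. The exception was Hbq1b, a globin of the theta type (chromosome 11, 32286964 to 32287912), at 26.9 CPM with FGF4 and 202 CPM with BMP4. Of 8 myeloid genes analysed from 19 in the list, 2 were higher, both of which reached 1 CPM only with FGF4 and so could enter only as higher: Mrc1, the mannose receptor of macrophages and some endothelium, at 2.70 CPM with FGF4 and 0.351 CPM with BMP4, and Mpo, a granule enzyme, at 1.72 CPM with FGF4 and 0.113 CPM with BMP4. The 13 genes of this list placed in all libraries summed to 29.5 CPM with FGF4 and 27.7 CPM with BMP4. Of 6 genes of platelets and their precursors analysed from a list of 12, 2 were higher and 0 lower, with a median of 0.34. These 2 were Vwf and Itga2b, at 6.01 and 5.98 CPM with FGF4, against 1.23 and 2.21 CPM with BMP4. Vwf is also made by endothelium.

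The stress lists were mixed. Hspa1a (chromosome 17, 34969359 to 34972156) and Hspa1b, near-identical heat shock genes that may share reads, had 116 and 111 CPM with FGF4, against 42.6 and 39.98 CPM with BMP4, and between 1.61 and 9.81 CPM in the other 4 libraries. The other 11 heat shock genes of the list were within 2-fold, with Hsp90aa1 at -0.36. Of 18 p53 target genes 2 were lower: Pmaip1 (Noxa), which promotes apoptosis, at 5.75 CPM with FGF4 and 14.9 CPM with BMP4, and the long noncoding RNA Trp53cor1 at 4.81 CPM with FGF4 and 11.8 CPM with BMP4. Trp53cor1 was between 0.454 and 0.617 CPM in the other 4 libraries. Of 32 cell cycle genes 0 were past the threshold, with a median of -0.10.

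Short and long transcripts differed slightly between both libraries. All 40 cytosolic ribosomal protein genes had ratios below 0, with a median of -0.44 and a range from -0.64 to -0.22, and 0 were past the threshold. By merged exon length (GENCODE vM21), the median log2 ratio was -0.14 in the shortest 20% of genes and 0.08 in the longest 20%, with lengths for 95.1% of genes. The median length was 4712 bases among genes at least 2-fold higher and 3090 bases among those lower, against 4425 bases over all genes. The part of transcript length in the ratios was not tested. Xist, the RNA of the inactive X, had 209 CPM with FGF4 and 114 CPM with BMP4, while the Y-linked gene Ddx3y had 19.3 CPM with FGF4 and 20.7 CPM with BMP4, and whether the mix of embryos differed was not tested.

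The untreated libraries put these differences in context. In the BMP4 11 h library, 72 of the 92 genes lower with FGF4 were at least 2-fold above untreated 96 h (2.61% of all genes analysed). With BMP4 and FGF4, 73 of the 92 were within 2-fold of the 96 h library, 12 were at least 2-fold above it and 7 below. For 67 of the 92 the 0 h library was at least 2-fold above the 96 h library (2.09% of all genes). Of the 182 genes higher with FGF4, 152 were within 2-fold of the 96 h level, 30 were at least 2-fold above it and 0 below. The BMP4 11 h library was at least 2-fold below the 96 h library for 33 of the 182 (0.279% of all genes), and the 0 h library for 134 (3.96%). Over the whole table, 219 genes were at least 2-fold higher with BMP4 and FGF4 than at 96 h (1.58% of 13884) and 16 were lower (0.115%). Most genes of the table were thus within 2-fold of 96 h, a larger share than of the 92 or the 182. These comparisons share the FGF4 or the BMP4 library with the one at 11 h, so their counts are not independent of it.

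FGF8 added to BMP4 for 5 h did not give this pattern. That comparison uses other libraries, another ligand and another time, so the values are set side by side with no test of their difference. With FGF8, 28 of 13507 genes were at least 2-fold higher than with BMP4 at 5 h (0.207%) and 9 lower (0.0666%). Of 25 tailbud, 28 presomitic and 9 posterior Hox genes analysed there, 0 were past the threshold, with medians of -0.04, -0.01 and 0.05. With FGF8, 0 of 28 feedback and target genes of ERK were past the threshold (median -0.02), and the endothelial and fibroblast medians were 0.06 and -0.18. Of the 41 lists, that of red blood cells had the median farthest from 0, at 2.12, with 7 of 11 genes higher, Hba-a1 and Hba-a2 counted separately. The 11 were those of 26 placed genes that reached 1 CPM at 5 h. Among them Hbq1b was under 1 CPM with BMP4 at 5 h and so could enter only as higher. No gene was past the threshold in the same direction in both comparisons, and 16 were in opposite directions, 12 of them lower with FGF4 at 11 h and higher with FGF8 at 5 h. These 12 were 14.3% of the 84 genes lower with FGF4 that were also analysed at 5 h, and 50.0% of the 24 higher with FGF8 that were also analysed at 11 h.

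**Figure D5:**
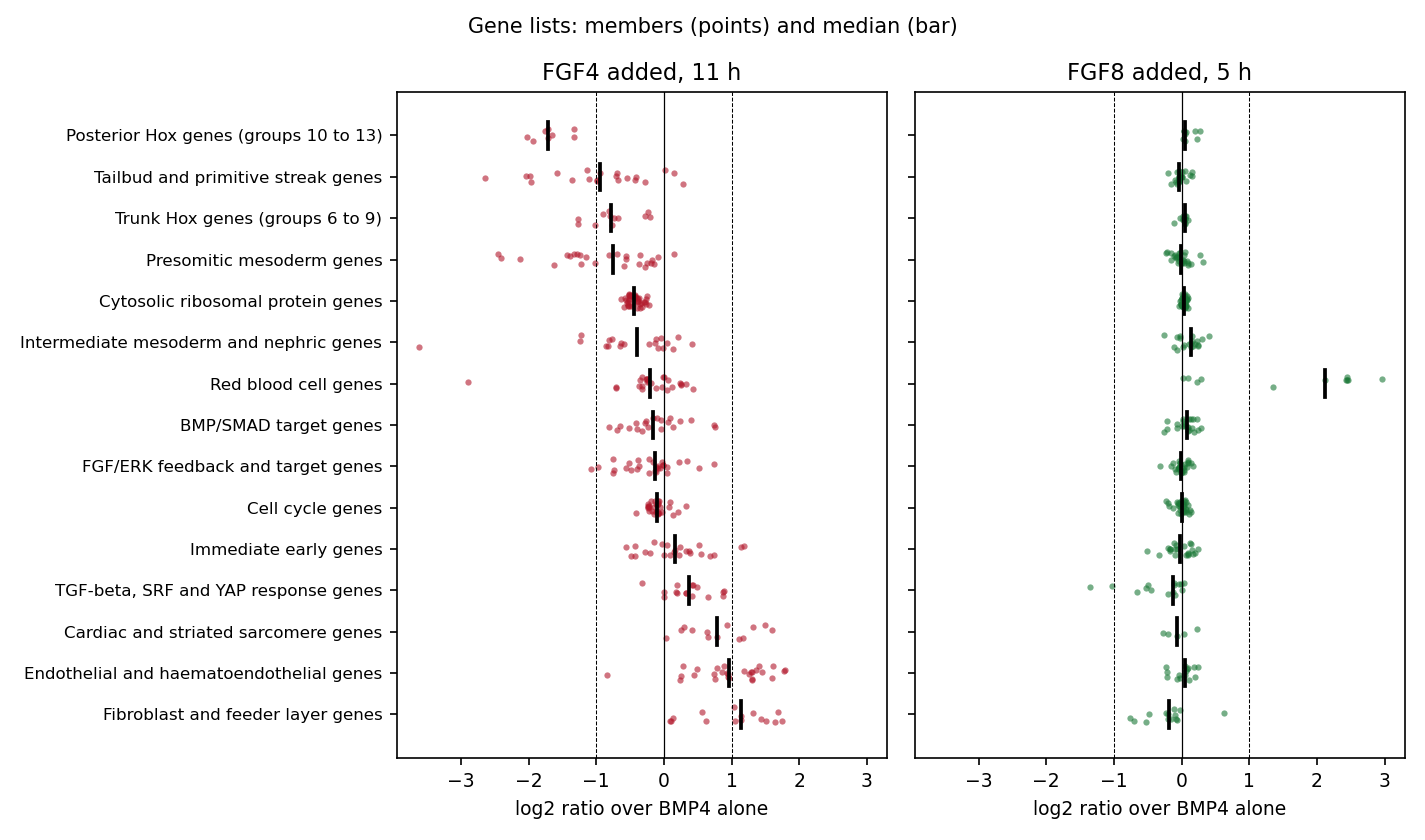
Log2 ratios of the analysed members of 15 gene lists (points) with their median (bar), for FGF4 added at 11 h (left) and FGF8 added at 5 h (right), each over BMP4 alone. With FGF4 the posterior Hox median is -1.71 and the fibroblast median 1.13. With FGF8 the red blood cell median, 2.12, is the one farthest from 0.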

How the data were processed

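Libraries were strand-specific and from total RNA, per the labels, and the authors deposited raw read counts per gene. Tools listed by the submitters' processing notes are cutadapt, STAR (2.4.0e), HTSeq and DESeq, with build mm10 and no settings. Of 6 columns beside 19342 names, 4 (the growth factor libraries) did not match the names row by row. Rows were put back in name order and each column was aligned in order to the untreated columns, using the observed rule that a column lists genes whose count summed with a partner column exceeds 10 (untreated 96 h, or BMP4 11 h for the FGF4 column). This placed 17506 genes in both 11 h columns, with 99.6% of their counts, and direct alignment of both columns gave the same pair for 17387 of 17388 genes. In simulated columns 99.7% of 13645 genes were kept and 100% of those were right. These columns were built from the placed counts with the same listing rule, so they do not test the rule. CPM came from TMM effective sizes (edgeR 4.0.16 in R 4.3.3). Genes with at least 1 CPM in either 11 h library were analysed; 3 counts equal 0.0111 to 0.0178 CPM, depending on the library. Of deposited counts from 1 to 20, between 65.4% and 70.9% were even; if mates were counted separately, the counting intervals are too narrow. Named genes are the 12 per direction with the interval farthest from 1 at a mean of at least 5 CPM, called list members, up to 4 per list with the largest ratio and a panel of pathway genes. Cdx1, Sox2, Tal1, Etv2, Gata2, Lmo2, Hba-a1, Spp1, Actg2, Myh11, Stab2, Hox, endothelial and immediate early genes named outside this rule and the genes in opposite directions were chosen after their values were seen. Of these, 1 gene is not reported here. Members and lists were chosen with earlier results of these data known. Alternatives covered scaling (also DESeq2 1.42.0 size factors), the added CPM, the filter and the placement. Coordinates are of GRCm38.p6 (RefSeq), the assembly of mm10; 232 of 234 symbols matched.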

Additional observations from a re-analysis of the deposited data

Results flagged for a closer look

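Genes that passed 2-fold in opposite directions with FGF4 at 11 h and with FGF8 at 5 h, each over BMP4 alone, are given here; the difference between both ratios was not tested, and each rests on 4 single libraries. With FGF4 the log2 ratios were -2.89 for Hbq1b, -2.86 for Scd4, -1.71 for D130009I18Rik, -1.68 for Rn45s (45S ribosomal RNA), -1.57 for Il31ra, -1.48 for Filip1l, -1.43 for Cmss1, -1.43 for Arhgap21, -1.36 for Mir6993, -1.18 for C130050O18Rik, -1.12 for Omd and -1.10 for Tmtc2. They were 1.19 for Gper1, 1.435 for Hspa1a and 1.46 for Hspa1b. Scd4, Mir6993, C130050O18Rik, Omd and Gper1 were under 1 CPM in the lower library of both comparisons. Each of them could therefore enter only in the direction it took. Rn45s had 322 CPM with BMP4 and FGF4 and 1030 CPM with BMP4, and 670 CPM with BMP4 and FGF8 and 221 CPM with BMP4 at 5 h. D130009I18Rik, Il31ra, Filip1l, Cmss1, Arhgap21 and Tmtc2 showed the same order of libraries, with Cmss1 at 225, 609, 385 and 164 CPM in that sequence. Whether these genes follow a common signal with Rn45s was not tested. Filip1l (chromosome 16, 57353277 to 57572804) lies within the bounds of Cmss1 (57301999 to 57606867). Their counts were close, 45879 and 48289 with BMP4 and FGF4. Whether they share reads was not tested, and they are counted separately among the genes in opposite directions. Scd4, a fatty acid desaturase, had 0.938 CPM with BMP4 and FGF4 and 9.93 CPM with BMP4, and 8.17 CPM with BMP4 and FGF8 and 0.990 CPM with BMP4 at 5 h.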

How the results depend on the processing

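No paired analysis was possible because each condition has 1 library. For the same reason no replicate could be left out. The medians of the FGF/ERK, BMP/SMAD, tailbud and presomitic lists kept their sign under every alternative run, except that the FGF/ERK median became 0.01 when scaled by total counts. Under that scaling the tailbud, presomitic and BMP/SMAD medians were -0.82, -0.55 and -0.016. With 2 CPM added the counts were 62 higher and 54 lower, and the tailbud and presomitic medians -0.72 and -0.58. A filter of at least 5 CPM left 105 higher genes. Without a filter these medians were -0.68 and -0.64. The tailbud median was -0.83 with placement on the 96 h column, -0.82 on the 0 h column and -0.82 at a placement margin of 10. Of 116 named genes past 2-fold, 6 fell within 2-fold when scaled by total counts (Etv4, Hoxc6, Jarid2, Mesp2, Nkx1-2 and Tmtc2) and 38 with 2 CPM added, which by construction shrinks the ratios of low genes most. None of the 116 changed direction under any alternative that gave a value. Genes with few counts in both libraries, and those not placed securely, among them Fgf8, Fgf4 and S100a4, limit what can be said of them.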
